A study of Homo sapiens with 8 samples.

Results

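The 5 genes described here, DHRS2, PALM3, CDH4, GNAZ and SDK2, were picked from the deposited table of normalised expression because little of their RNA was left in KYSE70 cells treated with mitoxantrone. All 5 were found by symbol among the 28281 genes of the table, and all 5 passed the minimum mean of 10 that left 15350 genes for testing. KYSE70 is a cell line from a human esophageal squamous cell carcinoma. Total RNA was sequenced from untreated cells (n = 3), from cells given 10 µM pyrimethamine for 72 h (n = 2) and from cells given 20 nM mitoxantrone for 72 h (n = 3), to see how gene expression responded to compounds that the submitters describe as inhibitors of NRF2, the transcription factor of the antioxidant response. No genetic change was made in any group, and the labels name no solvent for the untreated cells. They also do not say whether replicates were separate cultures, so the p-values measure the spread between these libraries, which may be technical. Because the mitoxantrone values chose the genes, the comparison of mitoxantrone with untreated cells is given for them as a description without a test. The comparison of pyrimethamine with untreated cells was tested, and it shares the 3 untreated libraries with the comparison that chose the genes.

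The 5 genes belong to different families. DHRS2 encodes a short-chain dehydrogenase/reductase, an enzyme that reduces carbonyl compounds with NADPH and that has been reported to bind MDM2, the ubiquitin ligase of p53. CDH4 encodes R-cadherin, a calcium-dependent adhesion protein that joins cells expressing the same cadherin and is anchored to actin through catenins. SDK2 encodes sidekick 2, an adhesion protein of the immunoglobulin superfamily best known from retinal synapses of mouse and chick. GNAZ encodes the G protein alpha subunit Gz, which inhibits adenylyl cyclase and, unlike the Gi subunits, is not a substrate of pertussis toxin. PALM3 encodes a member of the paralemmin family, whose founding member is a lipid-anchored protein of the inner face of the plasma membrane. Mitoxantrone is an anthracenedione that traps type II topoisomerases on DNA, and pyrimethamine is an antifolate.

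The 8 libraries held 17555689 to 24774358 reads assigned to genes. The untreated libraries correlated at 0.988 to 0.990 (Pearson r of log2 values over the tested genes) and the mitoxantrone libraries at 0.981 to 0.984, but the pyrimethamine libraries at 0.890. Pyrimethamine replicate 2 correlated with the mitoxantrone libraries at 0.953 to 0.967 and replicate 1 at 0.784 to 0.830. With the untreated libraries replicate 2 correlated at 0.943 to 0.946 and replicate 1 at 0.937 to 0.941. Replicate 2 was thus closer to each mitoxantrone library than to any untreated library or to replicate 1. For this reason the values of the 5 genes with pyrimethamine are given for each library as well as for both. Markers of squamous epithelium were abundant, with a summed normalised count over 10 genes of 114769 to 121291 in untreated cells, 76980 to 95832 with pyrimethamine and 66960 to 70526 with mitoxantrone. Of these 10 genes, 6 were called lower with mitoxantrone and 0 higher, where 28.1% of all tested genes were called lower and 26.8% higher. With pyrimethamine 1 of the 10 was called lower, where 1.31% of all tested genes were. Of the leukocyte and neuron markers, PTPRC, CD3E, RBFOX3 and STMN2 did not exceed a normalised count of 12 in any library. Others were expressed, among them TUBB3 and CD68, which had all treated libraries above all untreated ones. TUBB3, the neuronal tubulin gene, measured 697 to 777 untreated, 1464 and 2056 with pyrimethamine and 1561 to 1675 with mitoxantrone. It does not stand for the neuron list, whose 8 genes summed to 1633 to 1700, 2695 to 3797 and 2052 to 2206 in these groups. The rest of these sums came from other neuron markers, and TUBB3 was 1 of 4 that were tested. Of the 4 tested neuron markers, 1 was called higher with mitoxantrone and 0 lower, with a median log2 difference of -0.63. CD68, a macrophage marker, measured 52.4 to 62.2 untreated, 117 and 97.7 with pyrimethamine and 98.7 to 136 with mitoxantrone. The part of these marker differences in the values below was not tested, and in RNA from bulk cells fewer cells of a kind and less RNA per cell cannot be told apart.

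The annotated promoter windows of DHRS2 and PALM3 are shown because DHRS2 had the lowest mean of the 5 with mitoxantrone and because the PALM3 window differs from its window in composition. Each window runs from 250 bases before to 50 bases after the RefSeq start site on build GRCh38.p14, 5′ to 3′ on the strand of the gene. The DHRS2 window lies at chr14:23629865-23630164 on the plus strand and the PALM3 window at chr19:14062027-14062326 on the minus strand. Capitals mark matches to motifs searched on both strands and chosen with the sequences in view. The TATA box was searched as TATAAA. An E-box, the site of many helix-loop-helix factors, was searched as CAGCTG. The core of the antioxidant response element, which NRF2 binds, was searched as TGACNNNGC. These matches do not overlap one another here.
DHRS2: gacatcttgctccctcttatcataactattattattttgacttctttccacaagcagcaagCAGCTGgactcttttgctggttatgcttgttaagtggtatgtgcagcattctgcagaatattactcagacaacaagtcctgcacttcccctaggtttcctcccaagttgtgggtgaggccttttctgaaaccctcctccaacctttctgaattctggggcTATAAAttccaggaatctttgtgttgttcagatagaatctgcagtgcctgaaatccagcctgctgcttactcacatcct
PALM3: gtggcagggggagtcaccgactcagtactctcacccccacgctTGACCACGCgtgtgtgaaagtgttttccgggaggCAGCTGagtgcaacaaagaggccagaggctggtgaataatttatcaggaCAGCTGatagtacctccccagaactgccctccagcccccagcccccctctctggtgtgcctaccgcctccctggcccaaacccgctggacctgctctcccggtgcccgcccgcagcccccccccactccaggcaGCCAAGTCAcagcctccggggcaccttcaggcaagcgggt
The DHRS2 window holds 0 CpG dinucleotides, a number that 4.0% of the 35116 promoter windows in the table do not exceed, and its GC content is 44.0%. It has TATAAA starting 29 bases before the start site, a motif present in 11.5% of all windows, and CAGCTG starting 189 bases before it, present in 17.9%. It has no match to TGACNNNGC, which 13.3% of windows hold. It also has no GC box (GGGCGG), which 45.0% of windows hold, and PALM3 has 1, left in lower case since it is so common. The PALM3 window holds 12 CpG at a GC content of 64.3%, with 2 matches to CAGCTG and 2 to TGACNNNGC, of which the second is on the opposite strand. The RefSeq start site of PALM3 differs from its start in GENCODE 29, whereas that of DHRS2 is the same in both. CDH4 has 2 windows in the table, with 9 and 14 CpG, neither of which starts where the GENCODE 29 gene starts. GNAZ and SDK2 were not among the windows of the table.

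DHRS2 (chromosome 14, 23630115 to 23645639, GRCh38, plus strand) had the lowest log2 difference of all tested genes with mitoxantrone. Its normalised read count, the count divided by a size factor of the library, was 403, 396 and 412 in the untreated libraries and lower with pyrimethamine, at 53.1 and 88.5. With mitoxantrone it was 5.98, 7.75 and 5.52. The 3 groups did not overlap, and the mitoxantrone libraries lay close together although they rest on 4, 6 and 5 reads. The mean was 403 ± 7.92 (SD, n = 3) untreated and 6.41 ± 1.18 (SD, n = 3) with mitoxantrone, so 1.59% of the untreated level was left, a 62.9-fold lower mean. On the log2(value + 1) scale, used for all log2 differences here and understating those of low values, this was -5.78.

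CDH4 (chromosome 20, 61252426 to 61940617, plus strand), the R-cadherin gene, measured 327, 268 and 259 in the untreated libraries. It measured 186 and 88.5 with pyrimethamine and 25.4, 12.9 and 16.5 with mitoxantrone. The groups did not overlap, and pyrimethamine replicate 2 lay nearer to the mitoxantrone libraries than replicate 1 did. Its mean was 15.6-fold lower with mitoxantrone, 285 ± 36.9 against 18.3 ± 6.43 (SD, n = 3 each), a log2 difference of -3.93.

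SDK2 (chromosome 17, 73334384 to 73644089, minus strand), the other adhesion gene, measured 438, 436 and 458 in the untreated libraries, 448 and 196 with pyrimethamine, and 37.4, 37.4 and 44.1 with mitoxantrone. Pyrimethamine replicate 1 lay within the untreated range and replicate 2 below it. The mitoxantrone libraries lay far below all others with little spread. Its mean was 11.2-fold lower, 444 ± 12.2 against 39.7 ± 3.87 (SD, n = 3 each), a log2 difference of -3.46. SDK2 kept the most reads of the 5 genes with mitoxantrone, 25, 29 and 40.

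GNAZ (chromosome 22, 23070361 to 23125037, plus strand), the Gz alpha subunit gene, measured 261, 256 and 233 in the untreated libraries, 208 and 57.6 with pyrimethamine, and 13.5, 15.5 and 32.0 with mitoxantrone. All treated libraries lay below all untreated ones, with pyrimethamine replicate 1 only a little below them. Its mean was 12.3-fold lower with mitoxantrone, 250.1 ± 14.8 against 20.3 ± 10.2 (SD, n = 3 each), a log2 difference of -3.66.

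PALM3 (chromosome 19, 14053365 to 14059159, minus strand), the paralemmin family gene, measured 176, 209 and 152 in the untreated libraries and 163 and 54.5 with pyrimethamine. With mitoxantrone it measured 1.50, 12.9 and 41.9. Pyrimethamine replicate 1 lay within the untreated range, and the mitoxantrone libraries, all below the others, spread over a 28.0-fold range. They rest on 1, 10 and 38 reads. The exact Poisson 95% intervals of these values, which cover counting error only, were 0.0379 to 8.33, 6.19 to 23.7 and 29.7 to 57.5, and those of the lowest and the highest library did not overlap. The mean was 9.53-fold lower, 179 ± 28.4 against 18.8 ± 20.8 (SD, n = 3 each), a log2 difference of -3.97. This difference was -4.92 without mitoxantrone replicate 3 and -2.87 without replicate 1, the range over leaving out any 1 library. It was -3.23 with edgeR on the recovered reads, the smallest of the 5 by that tool, as by the fold of the means.

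**Figure D1:**
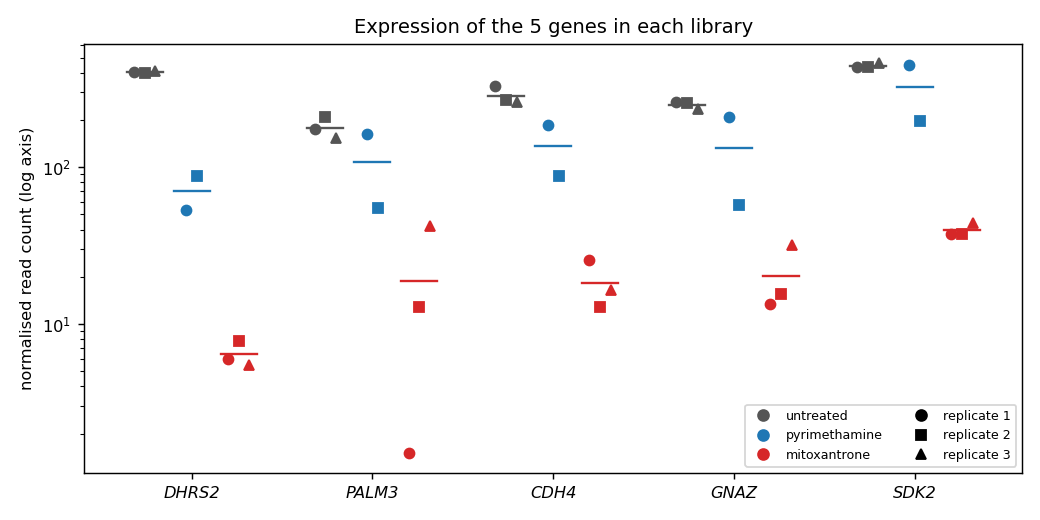
Normalised read count (vertical log axis) of each gene (horizontal axis) in every library, coloured by treatment, with a symbol for each replicate number and a bar at the group mean. The mitoxantrone libraries lie below all others for all 5 genes, from 1.50 (PALM3) to 44.1 (SDK2), and the pyrimethamine libraries are 53.1 and 88.5 for DHRS2 and 448 and 196 for SDK2.

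In all 5 genes the 3 mitoxantrone libraries lay below the other 5. This order is what the genes were chosen for. Against the untreated libraries alone, 39.5% of all tested genes had all mitoxantrone libraries below, and 54.9% were called by limma in either direction. The share that also lay below the pyrimethamine libraries was not counted. In untreated cells the genes were of middling expression, with mean counts at the 38.8 to 55.7 percentile of tested genes (PALM3 and SDK2). Per kb of the longest annotated transcript, the untreated level was 79.1 for PALM3, 75.8 for DHRS2, 75.0 for GNAZ, 43.7 for CDH4 and 41.4 for SDK2. With mitoxantrone the same per-kb level was 8.30 for PALM3, 6.09 for GNAZ, 3.70 for SDK2, 2.81 for CDH4 and 1.21 for DHRS2, so DHRS2 went from among the highest of the 5 to the lowest. With the spread of PALM3 between libraries, its place in the mitoxantrone order is uncertain.

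The 5 genes were not strictly the 5 lowest. Among all tested genes their log2 differences with mitoxantrone ranked 1 (DHRS2), 5 (PALM3), 7 (CDH4), 16 (GNAZ) and 29 (SDK2), and of the 28 genes below SDK2, 19 had a mean count under 100. Among the 3614 genes called lower by limma with a mean of at least 100 and no overlap between the groups, they took ranks 1, 3, 4, 6 and 10. Between them lay SREBF1 at -4.26, the regulator of lipid synthesis genes, and SCD at -3.74, the stearoyl-CoA desaturase. Also between them were EGFR-AS1 at -3.50, an antisense gene whose reads may come from its partner strand, the unnamed locus LOC105373581 at -3.48 and ZNF469 at -3.46. Just beyond SDK2 came HDAC4, a class IIa histone deacetylase, at -3.42.

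With pyrimethamine, DHRS2 was the only one of the 5 genes called at an adjusted p of 0.05, in a fit where 3.6% of all tested genes were called and 1.31% were called lower. It fell by 2.54 on the log2 scale (SE 0.30, 95% interval -3.22 to -1.86, limma adjusted p = 0.0115), with 13.2% of the untreated mean left in replicate 1 and 21.9% in replicate 2. This value for DHRS2 was among the results already known when the genes were chosen. The call was lost without untreated replicate 1, 2 or 3 (limma adjusted p = 0.0643, 0.0579 and 0.0587) and when only untreated and pyrimethamine libraries were fitted (0.17), while the difference itself lay between -2.90 and -2.18 whichever library was left out. With edgeR on the recovered reads the adjusted p was 0.0066.

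For the other 4 genes the pyrimethamine libraries disagreed, and none passed the threshold with both of them. GNAZ differed by -1.18 (SE 0.55, interval -2.43 to 0.07, limma adjusted p = 0.287) and CDH4 by -1.14 (SE 0.39, interval -2.03 to -0.25, limma adjusted p = 0.15). PALM3 differed by -0.90 (SE 1.02, interval -3.25 to 1.44, limma adjusted p = 0.689) and SDK2 by -0.58 (SE 0.33, interval -1.33 to 0.17, limma adjusted p = 0.381). These intervals include changes of several-fold, so the absence of a call does not show that the genes did not change. Both pyrimethamine libraries lay below all untreated ones for 3 of the 5 genes (DHRS2, CDH4 and GNAZ), as they did for 16.9% of all tested genes.

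The 2 pyrimethamine libraries taken singly gave different pictures. In replicate 2 GNAZ had 23.0% of its untreated level left, PALM3 30.5%, CDH4 31.1% and SDK2 44.2%. In replicate 1 the same genes had 83.3%, 90.9%, 65.1% and 101% left. Fitted without replicate 1, the log2 differences were -2.10 for GNAZ, -1.68 for PALM3, -1.67 for CDH4 and -1.17 for SDK2, with -2.18 for DHRS2. Fitted without replicate 2, they were -0.26 for GNAZ, -0.12 for PALM3, -0.61 for CDH4 and 0.013 for SDK2, with -2.90 for DHRS2. Such fits leave 1 pyrimethamine library, which is assumed to vary like the other groups, so only the differences are given. DHRS2 went the other way from the rest, with 1.67 times as much RNA in replicate 2 as in replicate 1, while the other 4 genes were lower in replicate 2.

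**Figure D2:**
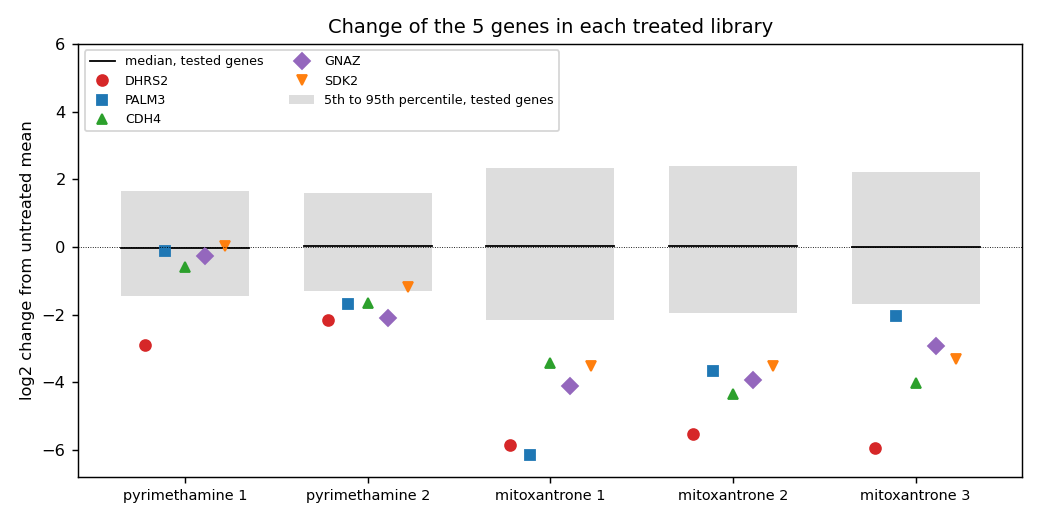
Log2 difference of each gene from its untreated mean (vertical axis) in each treated library (horizontal axis), with grey boxes from the 5th to the 95th percentile of the 15350 tested genes and a line at their median. In pyrimethamine replicate 1 only DHRS2 (-2.90) lies below the grey box, and in replicate 2 all but SDK2 do. In each mitoxantrone library all 5 do, and these libraries chose the genes.

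Set against all tested genes of the same library, 1 of the 5 genes lay below the 5th percentile in pyrimethamine replicate 1 (-1.46) and 4 in replicate 2 (-1.31). In each mitoxantrone library all 5 did (-2.15, -1.96 and -1.68), which follows from the choice of the genes. Between the treatments, the mitoxantrone mean was below the pyrimethamine mean by a log2 difference of -3.24 for DHRS2, -3.06 for PALM3, -2.88 for SDK2, -2.79 for CDH4 and -2.48 for GNAZ, given without a test because mitoxantrone chose the genes. The doses differ (10 µM and 20 nM), so these are values side by side.

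The closest relatives of the 5 genes had mitoxantrone differences from -2.29 to 1.47. GNAO1, of the same inhibitory class as GNAZ, was not counted among them and fell as far as GNAZ, at -3.74 beside -3.66. Of 11 relatives, 4 fell with mitoxantrone and 1 rose. With pyrimethamine limma called 0, and 0 had an unadjusted p under 0.05; edgeR called 0 and DESeq2 0. Over all tested genes, 28.1% were called lower and 26.8% higher with mitoxantrone. DHRS4, the reductase gene nearest to DHRS2 in its family, measured 550, 552 and 502 untreated, 300 and 557 with pyrimethamine, and 538, 496 and 438 with mitoxantrone. The groups overlapped, and its log2 difference was -0.13 (SE 0.23, limma adjusted p = 0.655), with -0.16 (0.593) for DHRS4L2. No stretch of 50 bases of annotated DHRS2 transcripts occurs in DHRS4, and 0.0762% occur in any other gene on the same strand. PALM, the founding paralemmin gene, differed by -0.44 (SE 0.29, adjusted p = 0.215), and PALMD, the palmdelphin gene, fell by 1.61 (SE 0.30, limma adjusted p = 0.00378).

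Among cadherins, CDH2, the N-cadherin gene and closest relative of CDH4, was also lower. It measured 1215, 1136 and 1165 untreated, 1174 and 471 with pyrimethamine, and 208, 248 and 267 with mitoxantrone, with the mitoxantrone libraries below all others and pyrimethamine replicate 1 within the untreated range. It fell by 2.29 (SE 0.30, limma adjusted p = 0.00106). CDH1, the E-cadherin gene, fell by 0.90 (SE 0.33, limma adjusted p = 0.0465), a call lost under 11 of 19 alternatives, and CDH3, the P-cadherin gene, differed by 1.11 (SE 0.46, adjusted p = 0.07). SDK1, the only close relative of SDK2, was higher, with 35.8, 20.5 and 18.7 untreated, 57.1 and 23.7 with pyrimethamine, and 65.8, 60.7 and 79.4 with mitoxantrone. It rose by 1.47 (SE 0.40, limma adjusted p = 0.0153), and this call was lost without untreated replicate 2, untreated replicate 3 or mitoxantrone replicate 3. The Gi genes, relatives of GNAZ that also inhibit adenylyl cyclase, differed by -0.07 (GNAI1, limma adjusted p = 0.779), -0.56 (GNAI2, 0.0157, lost under 7 alternatives) and 0.53 (GNAI3, 0.107).

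**Figure D3:**
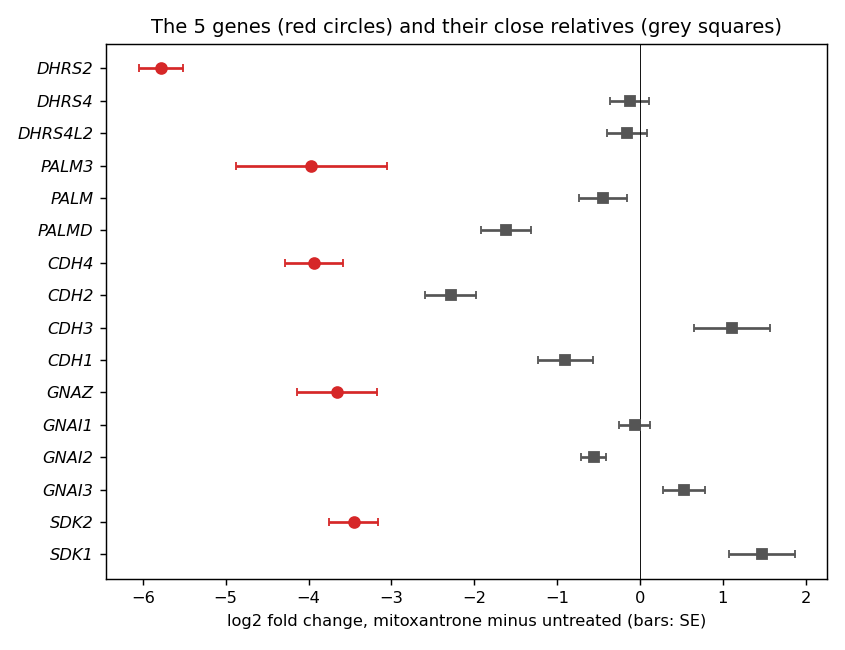
Log2 fold change of mitoxantrone against untreated cells (horizontal axis, bars ± SE from limma) for the 5 genes (red circles) and their close relatives (grey squares). All 5 genes lie left of the relatives plotted, from -3.46 (SDK2) to -5.78 (DHRS2), and SDK1 lies on the positive side at 1.47. GNAO1, of the same inhibitory class as GNAZ, is not plotted and was at -3.74, beside -3.66 for GNAZ. The 5 red values were chosen for being low.

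The wider families were described by counts beside those of all tested genes, whose median log2 difference was -0.08 with pyrimethamine and 0.00 with mitoxantrone. Of all tested genes, 26.8% were called higher and 28.1% lower with mitoxantrone, and 2.29% higher and 1.31% lower with pyrimethamine, and a family's count near these shares is not a result about the family. Of 42 tested short-chain dehydrogenases other than DHRS2, 16 rose and 4 fell with mitoxantrone, with a median of 0.60. DHRS9, a retinol and steroid dehydrogenase, rose by 3.28 (limma adjusted p = 0.000469), HSD17B6 by 2.58 (0.000609) and DECR2, the peroxisomal dienoyl-CoA reductase, by 1.78 (0.000901). The counts were 10 and 3 without untreated replicate 2 or mitoxantrone replicate 1. They were 10 and 2 without untreated replicate 3 or mitoxantrone replicate 2. With either pyrimethamine library left out more of the 42 were called, as were more of all tested genes. DHRS9 went from 67.1, 50.9 and 43.5 untreated to 644, 528 and 424 with mitoxantrone, with 162 and 382 with pyrimethamine. With pyrimethamine 3 of the 42 rose and 0 fell, namely HSD17B6 (2.46, limma adjusted p = 0.0127), DHRS9 (2.21, 0.0239) and RDH16 (2.14, 0.0276). In pyrimethamine replicates 1 and 2, HSD17B6 measured 80.5 and 97.7, and RDH16 38.3 and 62.7, above all untreated libraries. Each of these was lost under some alternatives, and 0 of the 42 were called with any 1 untreated library left out. Without pyrimethamine replicate 1 the median log2 difference of the 42 was 0.41, and without replicate 2 it was -0.42. The medians of all tested genes in these fits were 0.02 and -0.02.

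The catenins and other cadherin partners held 10 tested genes, of which 5 fell and 1 rose with mitoxantrone, with a median of -1.0. PKP4, the plakophilin gene that binds cadherin tails, fell by 2.16 (limma adjusted p = 0.00249) and CTNNA1, the alpha-catenin gene that links cadherins to actin, by 1.27 (0.00933). CTNNAL1, an alpha-catenin-like gene, rose by 1.47 (0.00134). Without untreated replicate 2 the counts were 2 lower and 1 higher. Of 9 tested cadherins other than CDH4, 3 fell and 2 rose, with a median of 0.10. CDH11 fell by 1.75 (limma adjusted p = 0.0044) beside CDH2, and CDH24, a type II cadherin gene, rose with mitoxantrone by 1.52 (0.000683) and with pyrimethamine by 1.55 (0.0124), at 885 and 661 in the pyrimethamine libraries beside 244 to 274 untreated. The pyrimethamine call of CDH24 was lost under 6 alternatives, leaving out any 1 untreated library among them.

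Of 11 tested G protein alpha subunit genes other than GNAZ, 7 fell and 2 rose with mitoxantrone, with a median of -0.71. GNAO1, the Go subunit gene of the same inhibitory class, measured 147, 142 and 150 untreated, 152 and 87.4 with pyrimethamine, and 8.97, 7.75 and 14.3 with mitoxantrone. Its mitoxantrone libraries lay far below all others, and it fell by 3.74 (SE 0.31, limma adjusted p = 0.000236), beside -3.66 for GNAZ. GNA12 fell by 1.40 (limma adjusted p = 0.000569) and GNA15, the subunit best known from blood cells, rose by 2.23 (0.00148). Among 26 tested partners of Gz (beta and gamma subunits, RGS proteins, adenylyl cyclases, RAP1GAP and protein kinase A subunits) 9 fell and 5 rose, with a median of -0.20. ADCY3, an adenylyl cyclase, fell by 1.91 (limma adjusted p = 0.000769), RAP1GAP, which binds Gz, by 1.89 (0.000839) and GNB1, a beta subunit, by 0.98 (0.00256). The counts were 6 lower and 3 higher without untreated replicate 2, and 7 and 2 without mitoxantrone replicate 2.

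Of 25 tested paralemmins and scaffold proteins of the cell cortex, 10 fell and 1 rose with mitoxantrone, with a median of -0.55. MARCKS fell by 1.38 (limma adjusted p = 0.000725), RDX, the radixin gene, by 1.58 (0.00168) and ADD1, the alpha-adducin gene, by 1.23 (0.00193). With either pyrimethamine library left out more of the 25 were called, as were more of all tested genes. Of 15 tested immunoglobulin-superfamily adhesion genes and their MAGI scaffolds, 5 fell and 1, SDK1, rose, with a median of -0.57. PTPRF, a receptor phosphatase, fell by 1.70 (limma adjusted p = 0.0102), IGSF9 by 1.65 (0.00732) and CNTN1, contactin 1, by 2.90 (0.0121). CNTN1 had a spread like that of PALM3, with 1.50, 10.3 and 23.2 in the mitoxantrone libraries. With pyrimethamine and both libraries, limma and edgeR each called 0 of the catenins, G alpha subunits, Gz partners and paralemmins, and DESeq2 called 0, 2, 4 and 2. At an unadjusted p under 0.05 the limma counts were 0, 3, 7 and 4. The direction moved with the library left out. Among paralemmins and catenins, lower genes prevailed without replicate 1 and higher genes without replicate 2. The G alpha subunits and Gz partners showed no such switch. Such fits leave 1 pyrimethamine library and called many more of all tested genes, so their counts are not a result about these families. Among the immunoglobulin-superfamily genes ROBO4 rose (2.26, limma adjusted p = 0.0371), from 19.7 to 25.7 untreated to 162 and 74.1, a call lost under 11 of its alternatives.

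The p53 axis was listed because of the reported link between DHRS2 and MDM2. Of its 12 tested genes, 4 rose and 2 fell with mitoxantrone, with a median of 0.16, and 3 rose and 0 fell with pyrimethamine, where 2.29% of all tested genes were called higher. The mitoxantrone counts are near the shares of all tested genes, 26.8% higher and 28.1% lower. The 3 were TP53I3, a quinone oxidoreductase gene, at 2.11 (limma adjusted p = 0.00977), GDF15, a stress-induced cytokine gene, at 1.12 (0.0208) and FAS, the death receptor gene, at 2.04 (0.0384). In pyrimethamine replicates 1 and 2 they measured 740 and 1101 (TP53I3), 1301 and 1235 (GDF15), and 43.4 and 85.4 (FAS). With mitoxantrone the same 3 rose by 2.39 (0.000216), 1.75 (0.000366) and 3.59 (0.000464). The mitoxantrone counts were 3 higher and 0 lower with any 1 untreated library or mitoxantrone replicate 1 left out. With either pyrimethamine library left out more of the 12 were called, as were more of all tested genes. The pyrimethamine calls were all lost with any 1 untreated library left out. MDM2 itself measured 2938, 2895 and 3027 untreated, 1618 and 2149 with pyrimethamine, and 2396, 2258 and 2129 with mitoxantrone, with all treated libraries below all untreated ones. It differed by -0.66 with pyrimethamine (limma adjusted p = 0.086) and by -0.39 with mitoxantrone (0.0707), neither of them called.

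The genes next to the 5 on the chromosome were compared to see whether they were low as well. Of 10 neighbours, 6 were expressed enough to be tested, 2 fell and 1 rose with mitoxantrone, near the 28.1% called lower and 26.8% called higher of all tested genes. With pyrimethamine limma called 0, and 2 had an unadjusted p under 0.05; edgeR called 0 and DESeq2 0. DHRS2 had no tested neighbour, since JPH4 and LINC00596 had at most 2 reads in any library. Beside PALM3, IL27RA (-0.75, limma adjusted p = 0.0886) and MISP3 (-0.67, 0.15) were not called. TAF4, a TFIID subunit gene 12.9 kb beyond CDH4, fell by 1.47 (limma adjusted p = 0.00878), and RAB36, 20.3 kb beyond GNAZ, by 1.24 (0.00196). CDC42EP4 beside SDK2 differed by 0.20 (0.309). The tested neighbours that adjoin without overlap thus differed by -1.47 to 0.20.

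RSPH14, a gene of motile cilia, overlaps GNAZ on the opposite strand and was higher. It measured 11.9, 11.4 and 16.6 untreated, 17.1 and 42.2 with pyrimethamine, and 50.8, 52.9 and 41.9 with mitoxantrone, the last group above all untreated libraries. It rose by 1.80 (SE 0.38, limma adjusted p = 0.00584). Of the 50-base stretches in annotated GNAZ transcripts, 5.99% also occur on the other strand of RSPH14. The sources used here do not say whether counting used strand, so the low GNAZ counts with mitoxantrone may hold some RSPH14 reads, or the reverse, and this was not tested. The shares of 50-base stretches found in another gene on the same strand were 0.0345% for SDK2 and 0 for PALM3, CDH4 and GNAZ.

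For each of the 5 genes, the 3 other tested genes with the most similar profile were found by Pearson r of log2(value + 1) over the 8 libraries. The libraries fall into treatment groups, so r is given as a description with no p. RAB6A, a Golgi trafficking gene (0.997), and CERS6, a ceramide synthase gene (0.995), were most like DHRS2. LOC112268006 (1.00) and MAP1S, a microtubule-associated protein gene (0.997), were most like PALM3, followed by AMER1, a regulator of WNT signalling (0.995). TUBGCP4 (0.997), ZNF395 (0.996) and PBX2 (0.995) were most like CDH4. CFAP73, LIMK1 and NACC1 (each 0.999) were most like GNAZ, and DVL2, TP63 and CAMKK2 (each 0.998) most like SDK2. This likeness is of shape and not of size, and 14 of the 15 genes had a smaller difference with mitoxantrone than the gene they resembled, from -0.58 for RAB6A to -1.95 for PBX2. The exception was AMER1 at -4.46 beside PALM3 at -3.97. The 5 genes were chosen for large mitoxantrone differences, so a smaller one in most other genes follows from that choice.

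Transcript length went with the change in every treated library and is given beside the 5 genes for that reason. The rank correlation of log2 difference with length, over the 14034 tested genes whose length was known, ranged from -0.411 to -0.389 for mitoxantrone. It was 0.324 for pyrimethamine replicate 1, -0.382 for pyrimethamine replicate 2 and -0.116 to 0.0638 for the untreated libraries. Among tested genes with a longest transcript of 5000 to 8000 bases, as for DHRS2 (5318) and CDH4 (6513), the median mitoxantrone difference was -0.64 and the 5th percentile -2.09. The medians and 5th percentiles were 0.37 and -1.50 for 1500 to 3000 bases (PALM3, 2262), -0.26 and -1.85 for 3000 to 5000 bases (GNAZ, 3333), and -0.77 and -2.14 above 8000 bases (SDK2, 10723). All 5 genes lay below the 5th percentile of their length class, which follows from their choice for low mitoxantrone values. The genomic span differed widely among the 5. It was 5.79 kb for PALM3, 15.5 kb for DHRS2, 54.7 kb for GNAZ, 310.0 kb for SDK2 and 688 kb for CDH4. Over all tested genes the median mitoxantrone difference was 0.32 for spans up to 10000 bases. It was -0.49 for spans of 100000 to 300000 bases and -0.33 above 300000 bases. The part of length and of span in the values of the 5 genes was not tested.

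**Figure D4:**
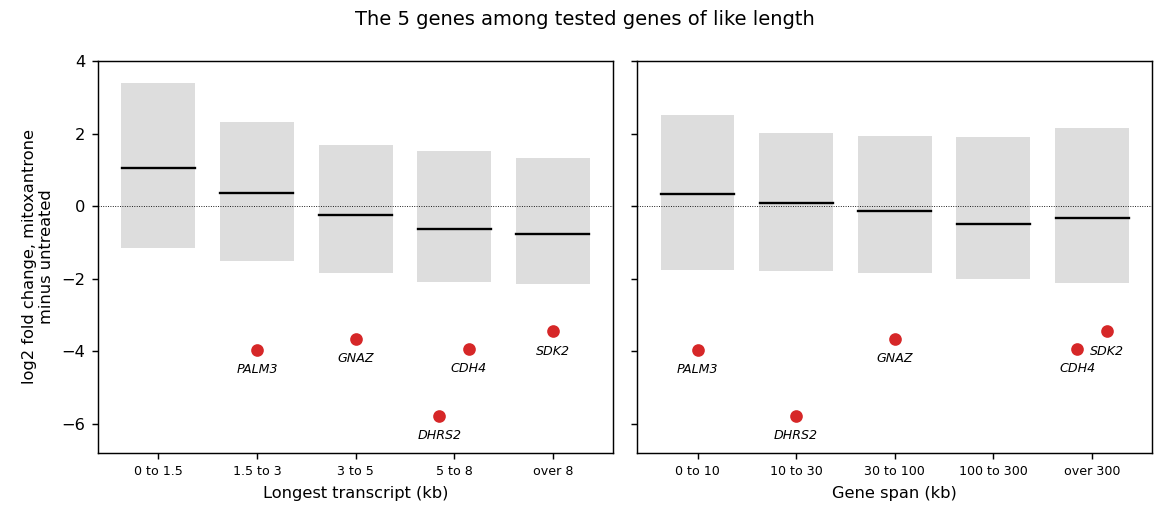
Log2 fold change of mitoxantrone against untreated cells (vertical axis) for the 5 genes (red points) in classes of longest transcript (left) and of gene span (right), with grey boxes from the 5th to the 95th percentile of tested genes in the class and a line at their median. The medians go down from 1.06 in the shortest to -0.77 in the longest transcript class. Each of the 5 genes lies below the box of its class in both panels, and the 5 were chosen for being low.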

How the data were processed

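RNA from KYSE70 cells was sequenced in 8 libraries on an Illumina platform. The submitters' processing notes name build hg38, the counter featureCounts 1.5.1, the aligner STAR 2.6.90c, and cutadapt 1.12 with FastQC 0.11.5. The gene annotation, the strand setting and the handling of multiply mapped reads were not given in the sources used. The deposited values are a signal: read counts per gene over a size factor for each library, a DESeq2 normalisation by the authors as the table is named. It has 0 columns beyond these 8 libraries. Whole reads were recovered, since 100% of values came out whole within 0.1 read in every library. Totals were 17555689 to 24774358 reads, and 447 of 28281 genes were 0 in every library. Gene positions and lengths came from GENCODE 29 (20858 genes matched by symbol, 652 by another symbol, 6771 unmatched), and promoter sequences from RefSeq.

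Genes with a mean of at least 10 over the 8 libraries (15350) were tested on log2(value + 1), with a pseudocount of 1, by limma 3.58.1 in R 4.3.3, with all libraries in 1 fit, treatment group as the only factor, a mean-variance trend, two-sided tests and Benjamini-Hochberg adjustment over all tested genes at 0.05. Recovered reads were also tested with edgeR 4.0.16 (quasi-likelihood) and DESeq2 1.42.0. The scripts were tested on simulated data. The 5 genes and all gene lists were chosen with earlier results of these data known. Named besides them were their close relatives, the nearest listed gene on each side, the 3 genes most like each over the 8 libraries, up to 3 called genes of each list per comparison by smallest adjusted p, and the next 6 genes of the ranking by mitoxantrone difference with a mean of at least 100. The alternatives comprised other pseudocounts, filters and scalings, a replicate block, the compared groups alone, each library left out, and edgeR and DESeq2.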

Additional observations from a re-analysis of the deposited data

How the results depend on the processing

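With pyrimethamine, 553 genes were called (352 higher, 201 lower; 501 and 139 with upper-quartile scaling). The count was 291 with no filter on low values, 322 with quantile normalisation, 670 with edgeR and 1738 with DESeq2. It was 0 with limma when only the groups compared were fitted (2077 at an unadjusted p under 0.05), and it ran from 10 to 7571 when 1 library was left out, with 10, 10 and 11 without untreated replicates 1, 2 and 3, 83, 61 and 144 without mitoxantrone replicates 1, 2 and 3, and 7276 and 7571 without pyrimethamine replicates 1 and 2. The mitoxantrone count of 8430 ran from 5687 to 11841. Whether the numbers of the replicates pair the libraries could not be settled. Over 7 pairs with the same number in their titles, deviations from the group means correlated at -0.287 to 0.127, with 1 pair over 0.1. The deviations of the 2 pyrimethamine libraries mirror each other, so pairs with them reflect the gap between these libraries. A replicate block left 0 pyrimethamine calls (2084 at an unadjusted p under 0.05) and 7251 mitoxantrone calls. A block by the numbers in the column names, which differ from the titles for 1 pyrimethamine library and were added after seeing the data, left 0 (2027) and 6592. The DHRS2 difference with pyrimethamine was -2.58 with the replicate block (limma adjusted p = 0.0972), -2.48 with the column numbers (0.123) and -2.54 with only the groups compared (0.17), each no longer called, and -2.90 to -2.18 with 1 library left out. With 1 library left out, CDH4 ran from -1.67 to -0.61, GNAZ from -2.10 to -0.26, PALM3 from -1.68 to -0.12 and SDK2 from -1.17 to 0.013, the last a change of sign without pyrimethamine replicate 2. With mitoxantrone, 94 of 95 alternative values of the 5 genes moved by less than the SD of that gene between mitoxantrone libraries. The exception was DHRS2 at -5.17 with a pseudocount of 5, which compresses low values. Many of these values could not move. The filters, the blocks, the compared groups alone and leaving out a pyrimethamine library keep this mean difference the same. The SD was also wide for PALM3, at 2.07, so its shift from -3.97 to -2.87 without mitoxantrone replicate 1 was within it. Of 57 named genes called with mitoxantrone, 51 were called under all alternatives in which they were tested, and of 10 called with pyrimethamine, 0. The glandular marker KRT8, 0.57 with mitoxantrone, was -0.10 after quantile normalisation; the cause was not tested. The mitoxantrone values of the 5 genes rest on 1 to 40 reads per library, which limits their precision.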

Other observations

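Of the genes with a mean count under 100, 19 had a lower log2 difference with mitoxantrone than SDK2, but none a lower one than DHRS2. Those given here were named after their values were seen. AMER1, a regulator of WNT signalling, measured 109, 103 and 113 untreated, 93.6 and 19.5 with pyrimethamine, and 0, 5.16 and 18.8 with mitoxantrone, a log2 difference of -4.46 (limma adjusted p = 0.0077, SE 1.01). GLI1, the transcription factor and target of hedgehog signalling, measured 158, 171 and 192 untreated, 79.9 and 24.7 with pyrimethamine, and 4.49, 15.5 and 22.1 with mitoxantrone, a log2 difference of -3.77. In both genes, as in PALM3, mitoxantrone replicate 1 was the lowest and replicate 3 the highest of the group, and pyrimethamine replicate 2 was below replicate 1. WSCD2 (-4.33), HOXC4 (-3.79) and the interleukin 21 receptor gene IL21R (-3.71) were also among these low genes. They did not show this order of the mitoxantrone libraries. The marker sums of other cell types moved with the treatments too. The sum of 8 glandular epithelium markers, led by KRT8, was 17331 to 17838 untreated, 15244 to 17048 with pyrimethamine and 27604 to 28253 with mitoxantrone. The sum of 7 fibroblast markers, led by COL1A1, was 1105 to 1212 untreated, 1853 to 2066 with pyrimethamine and 458 to 606 with mitoxantrone. Not all of them fell with mitoxantrone. Of 4 tested, 2 were called lower and 1 higher, where 28.1% and 26.8% of all tested genes were. The higher one, LUM, rose by 3.20, from a mean of 5.84 untreated to 52.1. The sum of 8 neuron markers, led by TUBB3, was 1633 to 1700, 2695 to 3797 and 2052 to 2206, that of 6 leukocyte markers 54.7 to 66.4, 104 to 132 and 112 to 152, and that of 5 endothelium markers 70.8 to 96.4, 181 to 353 and 91.2 to 203. Their part in the values of the 5 genes was not tested.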
